A study of Mus musculus with 34 samples.

Results

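The genes described here are 33 markers of macrophages and of Kupffer cells, the macrophages that reside in the liver. They were chosen by name as known markers, with earlier results of these data known, and all 33 were found among the 37583 genes of the deposited RNA files by gene identifier and symbol. By role they were taken as 5 markers of resident Kupffer cells (Clec4f, Marco, Timd4, Vsig4 and Cd5l), 7 markers of monocyte-derived or infiltrating cells (Ccr2, Cx3cr1, Itgam, Itgax, Trem2, Gpnmb and Mmp12), 7 surface receptors or coreceptors of macrophages in general, 9 genes of complement C1q, lysozyme and lysosomal or cytosolic proteins, and 5 Fc receptors or their adaptors. The livers came from F1 mice of C57Bl6 and CBA parents, killed 45 days after birth. One group was labelled wild type (WT). The other was labelled Set8KO (KO) and carried a floxed Setd8 gene on both alleles together with an Alb-Cre transgene. The labels do not say whether WT mice carried the floxed alleles or Cre. Setd8, also called Kmt5a or PR-Set7, encodes the methyltransferase that places a single methyl group on lysine 20 of histone H4. The albumin promoter drives Cre in hepatocytes, so macrophages of the KO livers should keep the gene, and whole liver was measured, not sorted cells.

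Kupffer cells line the liver sinusoids, where they clear bacteria, old red cells and cell debris from portal blood. They depend on the receptor Csf1r and carry the lectin Clec4f and the phosphatidylserine receptor Timd4. Once lost, they can be replaced by blood monocytes that arrive with high Ccr2 and take on the resident markers later. The transcription factor PU.1, encoded by Spi1, acts on many macrophage promoters.

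Messenger RNA was measured in 3 WT and 3 KO libraries, as values that the authors had scaled between libraries and rounded. Newly made RNA was measured with 1 WT and 1 KO library in each of 2 ways. In the first, mice of both genotypes received ethynyl uridine (EU, 25 mg/kg) 30 min before death and labelled nuclear RNA was captured. In the second, isolated nuclei ran on for 3 min with bromouridine triphosphate (Br). Whether the numbered replicates are separate animals is not said in the labels, so p-values measure the spread between libraries, which may be technical.

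Scaled values summed to 18069344 to 25820906 per mRNA library. WT replicate 3 stood apart: 20077 genes were above 0 in it, against 24497 to 26247 in the other 5 libraries, and it lay at 121 on the first principal component (43.9% of the variance) against -46.2 to -6.11. Marker differences, calls and list medians are therefore given with and without it. Setd8 mRNA was 593, 615 and 1076 in WT replicates 1 to 3 and 1199, 1040 and 1075 in KO replicates 1 to 3, and was thus not lower in the libraries labelled KO (log2 difference 0.59, SE 0.25, limma adjusted p = 0.244; 0.87 and 0.0198 without WT replicate 3). Values over the whole gene give little information on 1 floxed exon. The groups are named by their labels throughout.

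Most macrophage markers had higher mRNA in the libraries labelled KO, but few passed the test over all genes. Of the 33 markers, 29 had a positive and 4 a negative log2 difference (KO minus WT), and the median difference was 1.08 beside 0.0023 for all 16813 genes tested. Csf1r and Cd14 rose at a limma adjusted p under 0.05, no marker fell, and 31 were not called. Over all genes tested 1.35% were called higher and 1.36% lower, and a share of 1.35% corresponds to less than 1 gene of 33. In numbers these were 227 genes higher and 228 lower, against 294 and 177 with TMM scaling on top, where 3 markers were called higher (C1qc, Cd14 and Csf1r). All 33 markers passed the filter on low values, which asked for 10 or more scaled units in 3 or more libraries, and each reached 10 in at least 1 WT library. For 15 markers every KO library lay above every WT library, which held for 13.2% of genes tested. For 1 marker, Cx3cr1, every KO library lay below every WT library, which held for 12.8%. Without WT replicate 3, 10 markers were called higher and 0 lower, where 4.74% and 5.17% of genes were called, and the median difference was 0.91. No marker was called without WT replicate 1, WT replicate 2, KO replicate 1 or KO replicate 2, and 3 were without KO replicate 3 (C1qc, Csf1r and Tyrobp). Calls over all 16813 genes tested were fewer in these fits too. In the same order, 77, 26, 39, 13 and 162 genes were called higher and 77, 26, 72, 15 and 128 lower. An unadjusted limma p under 0.05 was reached by 22 of the 33 markers and by 20.0% of all genes tested. In bulk liver, fewer or more cells of a type and less or more RNA per cell cannot be told apart.

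**Figure D1:**
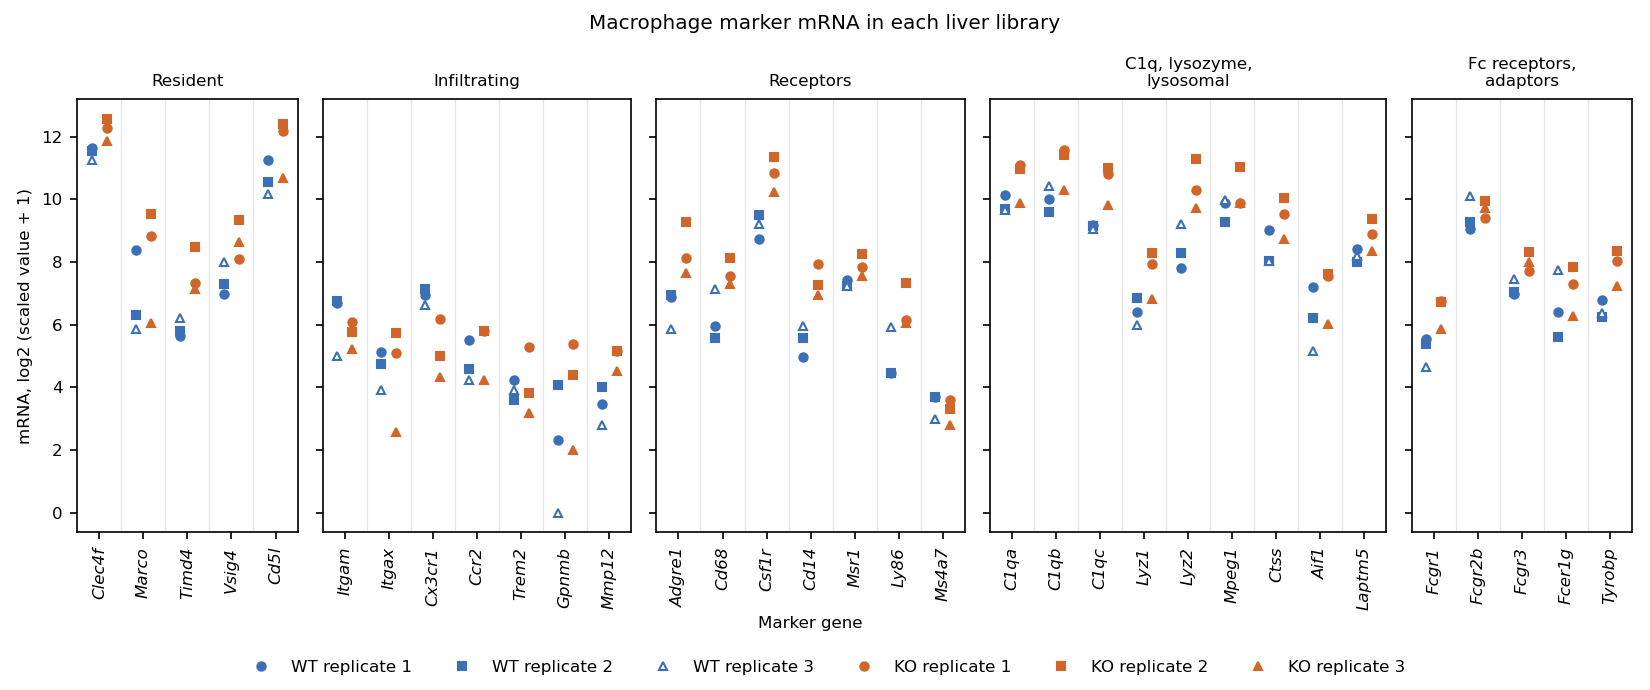
mRNA of each of the 33 macrophage markers as log2 of the scaled value plus 1 (vertical axis), by gene and role (horizontal axis), with 1 point per library: blue for WT, orange for KO, shapes for replicates 1 to 3, and an open triangle for WT replicate 3. KO replicates 1 and 2 were above all WT libraries for 25 of the 33 genes and KO replicate 3 for 15, while the WT points of Cx3cr1 were all above its KO points.

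Among the resident markers, all 5 had a positive difference and none was called with all libraries. The median of the 5 was 1.27, and 0.85 without WT replicate 3. Clec4f encodes a lectin found on Kupffer cells and was the marker with the highest level per length in WT, at 1169 scaled units per kb of exon. Its values were 3196, 3003 and 2469 in WT replicates 1 to 3 and 4915, 6109 and 3739 in KO replicates 1 to 3. All KO libraries were above all WT libraries, and the log2 difference was 0.75 (SE 0.23; limma adjusted p = 0.127, 0.64 and 0.112 without WT replicate 3).

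Timd4 binds phosphatidylserine on dying cells and marks Kupffer cells of embryonic origin. It was at 49, 55 and 73 in WT and at 159, 353 and 140 in KO, in the order of the replicate numbers. The groups did not overlap, and the log2 difference was 1.76 (SE 0.39, limma adjusted p = 0.056), and Timd4 passed the threshold without WT replicate 3 (1.92, limma adjusted p = 0.0254). Vsig4, the complement receptor that captures opsonised bacteria, was at 125, 156 and 256 in WT and at 275, 651 and 395 in KO. Its groups were separated by a small gap, between WT replicate 3 and KO replicate 1. The log2 difference was 1.27 (SE 0.38, limma adjusted p = 0.114), and it was called without WT replicate 3 (1.56, limma adjusted p = 0.0288).

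Marco, a scavenger receptor for bacteria, varied most among the resident markers. It was at 334, 79 and 57 in WT and at 457, 743 and 66 in KO. The groups overlapped, since KO replicate 3 was near WT replicates 2 and 3 and WT replicate 1 was near KO replicate 1 (log2 difference 1.29, SE 0.94, limma adjusted p = 0.495; 0.79 and 0.691 without WT replicate 3). Cd5l, a secreted macrophage protein also called AIM, was at 2439, 1502 and 1156 in WT and at 4596, 5458 and 1637 in KO. KO replicate 3 fell inside the WT range there too (log2 difference 1.09, SE 0.47, limma adjusted p = 0.242; 0.85 and 0.327 without WT replicate 3).

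The infiltrating markers did not move together. Of the 7, 4 had a positive and 3 a negative difference, none was called, and the median was 0.17 with all libraries and without WT replicate 3. Cx3cr1, the fractalkine receptor of patrolling monocytes and of their progeny, was at 122, 140 and 97 in WT and at 72, 31 and 19 in KO. It was the only one of the 33 markers whose KO libraries were all below its WT libraries (log2 difference -1.73, SE 0.48, limma adjusted p = 0.0968; -1.87 and 0.0541 without WT replicate 3). Itgam, the CD11b chain of complement receptor 3, was at 102, 106 and 31 in WT and at 67, 53 and 36 in KO. WT replicate 3 lay below all KO libraries and the other WT libraries above them (log2 difference -0.46, SE 0.51, limma adjusted p = 0.684; -1.03 and 0.0901 without that library).

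Itgax, the CD11c chain, was at 34, 26 and 14 in WT and at 33, 52 and 5 in KO. Its groups overlapped and its sign changed with the processing (log2 difference -0.13, SE 0.81, limma adjusted p = 0.953; -0.48 without WT replicate 3 and 0.34 with edgeR on re-estimated reads). Ccr2, the chemokine receptor by which monocytes leave the marrow, was at 45, 23 and 18 in WT and at 54, 54 and 18 in KO. The lowest KO value equalled the lowest WT value, and the log2 difference was 0.48 (SE 0.55, limma adjusted p = 0.691; 0.22 and 0.83 without WT replicate 3).

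The other 3 genes are known from lipid-associated or scar-associated macrophages, and all 3 were low. Trem2, a lipid receptor, was at 18, 11 and 14 in WT and at 38, 13 and 8 in KO (log2 difference 0.17, SE 0.64, limma adjusted p = 0.919; 0.17 and 0.886 without WT replicate 3). Gpnmb, a lysosomal glycoprotein, was at 4, 16 and 0 in WT and at 41, 20 and 3 in KO (log2 difference 1.79, SE 1.25, limma adjusted p = 0.477; 0.72 and 0.674 without WT replicate 3). Both overlapped between groups. Mmp12, macrophage elastase, was at 10, 15 and 6 in WT and at 35, 35 and 22 in KO. Its groups did not overlap (log2 difference 1.53, SE 0.51, limma adjusted p = 0.148; 1.22 and 0.101 without WT replicate 3).

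Set against each other within each library, resident and infiltrating markers gave overlapping groups with all libraries. The mean log2 value (plus 1) of the 5 resident markers exceeded that of the 7 infiltrating markers by 3.88, 3.32 and 4.52 in WT replicates 1 to 3 and by 4.17, 5.38 and 5.15 in KO replicates 1 to 3. KO replicates 2 and 3 were above every WT library and KO replicate 1 was below WT replicate 3 alone. Without WT replicate 3 the groups did not overlap, with KO above WT. The resident mean was 8.78, 8.31 and 8.30 in WT replicates 1 to 3 and 9.74, 10.47 and 8.88 in KO replicates 1 to 3. The infiltrating mean was 4.90, 4.98 and 3.78 in WT and 5.57, 5.09 and 3.72 in KO, in the same order. These means were not tested, since the genes were chosen with results known.

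Sequences just upstream of 4 markers are shown, picked after their values were seen from the markers whose groups did not overlap. Of the 4, Timd4, Vsig4 and C1qc had higher KO values and Cx3cr1 lower ones. Other markers without overlap, such as Clec4f and Mmp12, are not shown. Each sequence is the 250 bases before the annotated start in RefSeq (build GRCm38.p6), read 5′ to 3′ on the strand of the gene. Capitals mark the PU.1 core GAGGAA, searched on both strands, so that its reverse complement appears as TTCCTC.
Timd4, chr11:46810549-46810798, plus strand: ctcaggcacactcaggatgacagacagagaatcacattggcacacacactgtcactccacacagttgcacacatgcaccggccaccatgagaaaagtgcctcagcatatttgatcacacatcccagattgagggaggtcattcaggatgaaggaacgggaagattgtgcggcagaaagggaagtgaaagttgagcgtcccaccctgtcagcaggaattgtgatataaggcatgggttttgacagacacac
Vsig4, chrX:96293439-96293688, minus strand: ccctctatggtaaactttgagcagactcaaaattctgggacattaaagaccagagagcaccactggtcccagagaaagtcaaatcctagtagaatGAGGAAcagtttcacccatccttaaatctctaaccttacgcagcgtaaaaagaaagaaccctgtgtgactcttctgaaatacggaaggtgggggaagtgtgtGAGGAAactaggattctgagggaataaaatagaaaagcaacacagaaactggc
C1qc, chr4:136892915-136893164, minus strand: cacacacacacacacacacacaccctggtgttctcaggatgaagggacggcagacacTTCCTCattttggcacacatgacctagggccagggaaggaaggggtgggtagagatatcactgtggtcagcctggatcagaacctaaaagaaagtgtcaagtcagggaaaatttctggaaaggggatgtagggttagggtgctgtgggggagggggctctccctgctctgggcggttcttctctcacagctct
Cx3cr1, chr9:120068297-120068546, minus strand: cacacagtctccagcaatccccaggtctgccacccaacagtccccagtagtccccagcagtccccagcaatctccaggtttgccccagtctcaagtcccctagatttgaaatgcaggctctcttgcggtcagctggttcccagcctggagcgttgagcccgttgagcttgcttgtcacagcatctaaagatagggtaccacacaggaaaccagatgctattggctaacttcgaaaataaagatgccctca

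Vsig4 held 2 matches and C1qc held 1, while the letters GAGGAA were in neither strand of the Timd4 and Cx3cr1 stretches. Windows of 300 bases, which add 50 bases after the start, were listed for 27 of the 33 markers and not for Adgre1, Csf1r, Cd14, C1qa, Tyrobp and Msr1. The core was in at least 1 window of 15 of these 27 genes (55.6%), beside 8446 of all 27025 genes (31.3%). The longer AGAGGAAGT, which contains the core, was in 1 of the 27, Mmp12, beside 1.18% of all genes. These are matches of letters in a window and were not tested.

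The general macrophage receptors had the highest median difference of the 5 groups, at 1.56 (1.68 without WT replicate 3). They include both called markers. Csf1r, the receptor for the growth factors Csf1 and Il34, was at 429, 727 and 595 in WT and at 1844, 2594 and 1203 in KO. The groups did not overlap and Csf1r rose 3.14-fold (log2 difference 1.65, SE 0.31, limma adjusted p = 0.0381; 1.68 and 0.0254 without WT replicate 3). Cd14, the coreceptor that passes lipopolysaccharide to Tlr4, was at 30, 47 and 61 in WT and at 246, 152 and 122 in KO. The groups did not overlap here either and Cd14 rose 3.69-fold (log2 difference 1.88, SE 0.38, limma adjusted p = 0.0448; 2.11 and 0.0158 without WT replicate 3). Both calls were lost when any 1 of 4 other libraries was left out. The limma adjusted p of Csf1r was then 0.0854 or 0.0956 without WT replicate 1 or 2, and 0.113 or 0.169 without KO replicate 1 or 2. For Cd14 it was 0.0904, 0.136, 0.121 and 0.187 in the same order, and 0.0648 without KO replicate 3.

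Other receptors differed in the same direction without passing the test on all libraries. Cd68, a lysosomal glycoprotein used to stain macrophages, was at 61, 47 and 140 in WT and at 185, 278 and 158 in KO. WT replicate 3 was the nearest of the WT libraries to KO, and Cd68 was called without it (log2 difference 1.89, limma adjusted p = 0.0141, against 1.43 and 0.117 with it). Ly86, also called MD-1, the partner of Cd180, was at 21, 21 and 60 in WT and at 70, 159 and 66 in KO. WT replicate 3 was again nearest to KO, and Ly86 was called without it (2.05, limma adjusted p = 0.0258, against 1.56 and 0.151). Adgre1, which encodes the F4/80 antigen, was at 116, 122 and 57 in WT and at 276, 615 and 201 in KO, with no overlap (log2 difference 1.79, SE 0.46, limma adjusted p = 0.0797; 1.44 and 0.0687 without WT replicate 3). Msr1, scavenger receptor A, differed by 0.60 with no overlap (limma adjusted p = 0.224; 0.56 and 0.197 without WT replicate 3). Ms4a7, a membrane-spanning protein, was at 12 or below in every library and differed by -0.23 (limma adjusted p = 0.881; -0.46 and 0.576 without WT replicate 3).

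The 3 subunits of C1q, the recognition molecule of the classical complement pathway, were among the most abundant markers per length. In WT they were at 881 (C1qa), 977 (C1qb) and 290 (C1qc) scaled units per kb. C1qa was at 1123, 818 and 808 in WT and at 2192, 2007 and 952 in KO. C1qb was at 1035, 777 and 1377 in WT and at 3065, 2728 and 1248 in KO. In both, KO replicate 3 fell inside the WT range and the other KO libraries lay above it, with log2 differences of 0.83 and 1.08 (limma adjusted p = 0.211 and 0.154). Without WT replicate 3 these were 0.75 and 1.28 (limma adjusted p = 0.209 and 0.0682). C1qc was at 574, 570 and 536 in WT and at 1810, 2050 and 907 in KO. It had the tightest WT values of the 3 subunits and no overlap. Its log2 difference was 1.42 (SE 0.30), with a limma adjusted p of 0.0509 just above the threshold, and it was called without WT replicate 3 (1.39, limma adjusted p = 0.036).

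Lyz2, the lysozyme of macrophages and neutrophils, had the largest difference of the 33 markers. It was at 223, 310 and 592 in WT and at 1246, 2489 and 837 in KO. The groups did not overlap (log2 difference 1.99, SE 0.46, limma adjusted p = 0.0628), and it was called without WT replicate 3 (2.38, limma adjusted p = 0.0188). Lyz1, the paralogue best known from Paneth cells, was at 84, 115 and 63 in WT and at 243, 311 and 112 in KO (log2 difference 1.26, SE 0.41, limma adjusted p = 0.146; 1.05 and 0.143 without WT replicate 3). KO replicate 3 was just below WT replicate 2. The longest annotated transcripts share 16.1% of the 50-base windows of Lyz1 and 15.4% of those of Lyz2, so reads could be split between the pair and the 2 values are uncertain.

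The other 4 genes of this group were the cysteine protease Ctss (cathepsin S), the pore-forming Mpeg1 (perforin-2), the lysosomal Laptm5 and the calcium-binding Aif1 (Iba1). Each overlapped between WT and KO. Their log2 differences were 1.08 for Ctss, 0.88 for Aif1, 0.66 for Laptm5 and 0.54 for Mpeg1, with limma adjusted p from 0.175 to 0.467. Without WT replicate 3 they were 0.91, 0.36, 0.65 and 0.68 in the same order, with none called. The 9 genes together had a median of 1.08, and 0.91 without WT replicate 3.

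All 5 Fc receptors and adaptors had a positive difference, with a median of 0.85 (1.00 without WT replicate 3). Tyrobp (DAP12), the signalling adaptor of Trem2 and related receptors, was at 109, 75 and 82 in WT and at 260, 328 and 148 in KO. The groups did not overlap (log2 difference 1.40, SE 0.33, limma adjusted p = 0.0674; 1.36 and 0.0495 without WT replicate 3). The activating receptor Fcgr3 was at 124, 132 and 176 in WT and at 207, 318 and 257 in KO. It did not overlap either (0.85, SE 0.25, limma adjusted p = 0.117; 1.00 and 0.0409 without WT replicate 3). The inhibitory receptor Fcgr2b, which sinusoidal endothelial cells of the liver carry as well, was at 526, 618 and 1105 in WT and at 674, 977 and 843 in KO. WT replicate 3 was its highest library and the groups overlapped (0.21, SE 0.30, limma adjusted p = 0.755; 0.53 and 0.136 without WT replicate 3). Fcgr2b and Fcgr3 share 4.75% and 12.8% of their 50-base windows, so their values are uncertain as a pair. The high-affinity receptor Fcgr1 differed by 1.25 with no overlap (limma adjusted p = 0.134; 0.97 and 0.121 without WT replicate 3). The common gamma chain Fcer1g differed by 0.55 with overlap (limma adjusted p = 0.662; 1.13 and 0.151 without WT replicate 3).

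**Figure D2:**
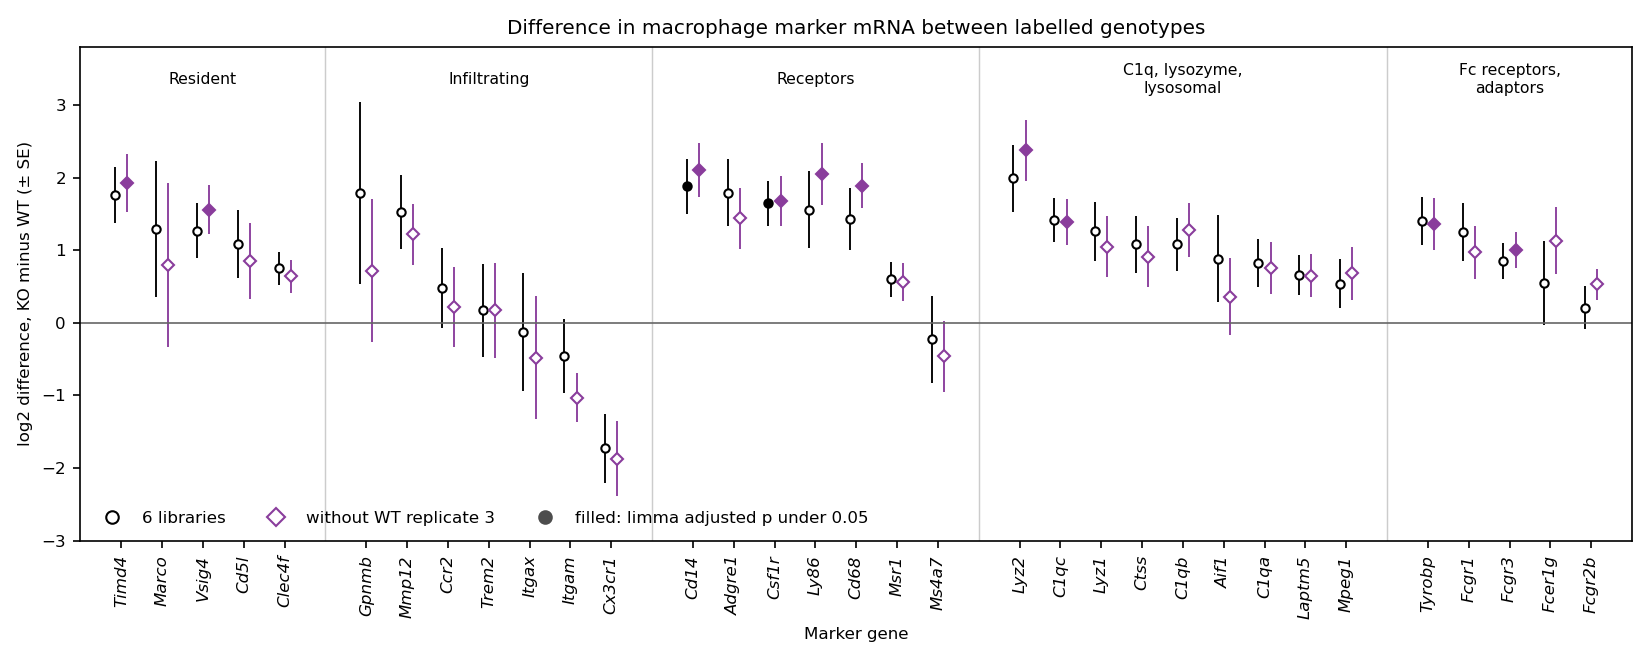
log2 difference in mRNA, KO minus WT (vertical axis), for each marker by role (horizontal axis), with all 6 libraries (black circles) and without WT replicate 3 (purple diamonds); bars are the standard error of the fit and filled symbols have a limma adjusted p under 0.05. Csf1r and Cd14 are filled with 6 libraries and 10 markers without WT replicate 3, and Cx3cr1 has the lowest value in both.

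The KO libraries differed among themselves in the same order for most markers. KO replicate 3 was the lowest KO library for 29 of the 33 markers, beside 32.7% of all genes tested, and KO replicate 2 was the highest for 22, beside 24.6%. KO replicates 1 and 2 were both above every WT library for 25 markers (19% of genes tested). The summed value of the 33 markers was 13204, 10973 and 11834 in WT replicates 1 to 3 and 25907, 33203 and 15236 in KO replicates 1 to 3. KO replicate 3 thus lay nearer to the WT libraries than to the other KO libraries. Without KO replicate 3 the median difference was 1.43, and without KO replicate 2 it was 0.76. Reads re-estimated from the rounding of the values were 20984212, 27096574 and 15620486 in KO replicates 1 to 3, the same order as the marker sums. In WT replicates 1 to 3 they were 16884259, 21411415 and 22689643, while the marker sum was highest in WT replicate 1. Whether depth played a part in the order was not tested.

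No gene of the growth factor and regulatory axis of macrophages was called apart from Csf1r. Of the 5 tested growth factor and receptor genes beside Csf1r, none was called and the median was 1.01 (0.70 without WT replicate 3). Il34, a second ligand of Csf1r, was at 56, 47 and 26 in WT and at 75, 86 and 91 in KO (log2 difference 1.01, limma adjusted p = 0.167), and Csf1 itself differed by -0.38 (limma adjusted p = 0.565). None of 15 transcription factors of the macrophage lineage was called, with a median of 0.31 (0.41 without WT replicate 3). This list is not specific to macrophages in whole liver. Cebpa was at 7479 scaled units per kb in WT, beside 1169 for Clec4f, the highest of the markers. Which cells these values came from was not tested. Spi1 (PU.1) was at 133, 76 and 91 in WT and at 251, 202 and 96 in KO (0.80, limma adjusted p = 0.314). Irf5, a factor of inflammatory macrophages, was at 456, 328 and 601 in WT and at 173, 263 and 186 in KO, with no overlap (-1.13, limma adjusted p = 0.0734).

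Of 18 genes of efferocytosis, scavenging and iron handling, 3 rose and none fell, beside 1.35% and 1.36% of all genes tested, and the median was 0.40 (0.50 without WT replicate 3). Axl, a receptor tyrosine kinase that binds dying cells through Gas6, was at 271, 216 and 180 in WT and at 681, 800 and 443 in KO (log2 difference 1.50, limma adjusted p = 0.0331). Hmox1, heme oxygenase of cells that degrade red cells, was at 200, 208 and 221 in WT and at 814, 675 and 374 in KO (1.49, limma adjusted p = 0.0416). Slc11a1 (Nramp1), a metal transporter of the phagosome, was at 107, 95 and 79 in WT and at 225, 265 and 179 in KO (1.24, limma adjusted p = 0.0474). None of these 3 overlapped between groups, and all 3 stayed called without WT replicate 3. All 3 calls were lost without WT replicate 1, WT replicate 2, KO replicate 1 or KO replicate 2, where the limma adjusted p went up to 0.178 (Axl), 0.208 (Hmox1) and 0.246 (Slc11a1). That of Slc11a1 was also lost without KO replicate 3 (limma adjusted p = 0.0669). Cd36, a scavenger receptor that also takes up fatty acids, was called higher without WT replicate 3 (1.94, limma adjusted p = 0.00691, against 1.39 and 0.139). Mertk, another receptor of the Axl family on Kupffer cells, differed by -0.11 with overlap (limma adjusted p = 0.785), and the hemoglobin scavenger receptor Cd163 by 0.90 (limma adjusted p = 0.152).

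Of 8 tested chemokines and related ligands of monocytes, 1 rose and none fell, beside 1.35% and 1.36% of all genes tested. The median was 0.43 (0.60 without WT replicate 3). Ccl6 was at 81, 64 and 43 in WT and at 197, 336 and 150 in KO (log2 difference 1.81, limma adjusted p = 0.0483). Ccl9 was at 2531, 2409 and 5578 in WT and at 1135, 1427 and 1283 in KO, with no overlap (-1.34, limma adjusted p = 0.0687), and was called lower without WT replicate 3 (limma adjusted p = 0.018). Ccl2, the ligand of Ccr2, was at 34 or below in every library and overlapped (-0.26, limma adjusted p = 0.856), and Cx3cl1, the ligand of Cx3cr1, differed by 0.35 (limma adjusted p = 0.742). Of 14 genes of microbial pattern recognition, 1 rose, beside 1.35% of all genes tested, and the median was 0.68 (0.79 without WT replicate 3). It was Lbp, the lipopolysaccharide-binding protein secreted by hepatocytes, at 1364, 1027 and 1036 in WT and at 2535, 2010 and 2883 in KO (1.11, limma adjusted p = 0.0381). The calls of Ccl6 and Lbp held without WT replicate 3 (limma adjusted p = 0.0312 and 0.0249) and were lost without any other library, with limma adjusted p up to 0.215 and 0.154. Tlr4 itself differed by -0.10 (limma adjusted p = 0.927). Tlr1 was at 8 or below in WT and at 13 to 56 in KO (2.82, limma adjusted p = 0.114). It passed the filter only through the KO libraries and could enter only as higher in KO.

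Markers of other cell types differed to unequal extents. Of 10 genes expressed by leukocytes in general, all 10 had a positive difference, none was called, and the median was 0.99 (0.82 without WT replicate 3). Their summed value was 1804 to 2322 in WT and 2479 to 3840 in KO. Ptprc (CD45), which defines leukocytes, was at 110, 73 and 57 in WT and at 163, 296 and 82 in KO and overlapped (log2 difference 1.03, limma adjusted p = 0.277). Lymphocyte markers had a median of 0.33 (14 tested, none called) and 0.019 without WT replicate 3, with sums of 184 to 317 in WT and 212 to 432 in KO. Dendritic markers had a median of 0.037 (8 tested, none called) and -0.093 without WT replicate 3, with sums of 283 to 420 in WT and 277 to 361 in KO.

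Of the 10 neutrophil markers 5 passed the filter, with none called and a median of 1.05 (1.39 without WT replicate 3). Their sums were 123 to 339 in WT and 100 to 249 in KO, and 7 of the 10 were at 0 in at least 1 library. S100a8, a defining neutrophil protein, was at 7 or below in WT and at 10 to 22 in KO (log2 difference 1.86, limma adjusted p = 0.229), and Ly6g was at 6 or below everywhere. Ngp was at 4, 2 and 0 in WT and at 17, 19 and 10 in KO (2.68, limma adjusted p = 0.144). S100a8 and Ngp passed the filter only through the KO libraries, so they could enter only as higher in KO. The median of the 5 was therefore partly set by the filter. Ltf, lactoferrin of neutrophil granules, was at 68, 211 and 0 in WT and at 27, 12 and 6 in KO. It made up most of the neutrophil sum of WT replicate 2 and was called lower without WT replicate 3 (log2 difference -3.15, limma adjusted p = 0.0266, against -0.84 and 0.842 with it). Csf3r, the receptor for the neutrophil growth factor, differed by -0.12 (limma adjusted p = 0.897). Endothelial markers other than Fcgr2b had a median of 0.077 (11 tested, none called) and 0.34 without WT replicate 3, with sums of 8611 to 10498 in WT and 9449 to 10073 in KO. For 4 of the 11 every KO library was above every WT library, which held for 13.2% of genes tested. Without WT replicate 3 the junction protein Cdh5 (1.23, limma adjusted p = 0.0109, against 1.00 and 0.0697 with it) and the sinusoidal Oit3 (0.65, limma adjusted p = 0.0448, against 0.59 and 0.11) were called higher. Of 12 stellate cell and fibroblast markers, 10 had a positive and 2 a negative difference. Their median was 0.69 (0.68 without WT replicate 3), and their sums were 4425 to 6271 in WT and 7287 to 8921 in KO. Pdgfrb, a receptor of these cells, rose (1.36, limma adjusted p = 0.0209), beside 1.35% of all genes tested. Rgs5 was at 1003, 845 and 1301 in WT and at 485, 585 and 609 in KO. Its groups did not overlap (-0.89, limma adjusted p = 0.0681). Without WT replicate 3 the calls were 3 higher and 1 lower, where 4.74% and 5.17% of genes were called. The lower one was Rgs5 (-0.72, limma adjusted p = 0.0454). Bile duct markers had a median of 0.22 (0.37 without WT replicate 3) with Spp1 called higher (1.85, limma adjusted p = 0.0285), a gene that macrophages also express, and sums of 573 to 720 in WT and 1048 to 1965 in KO. Without Spp1 those sums were 250 to 336 in WT and 245 to 396 in KO. The call of Pdgfrb held only without WT replicate 3 (limma adjusted p up to 0.115 without another library). That of Spp1 held without WT replicate 3 or KO replicate 3 and was lost without any of the other 4 libraries (limma adjusted p up to 0.153). Hepatocyte markers had a median of -0.046 (12 tested, none called) and 0.21 without WT replicate 3, with sums of 2073947 to 3269015 in WT and 2072683 to 2449176 in KO. The part of these other cell types in the macrophage values was not tested.

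**Figure D3:**
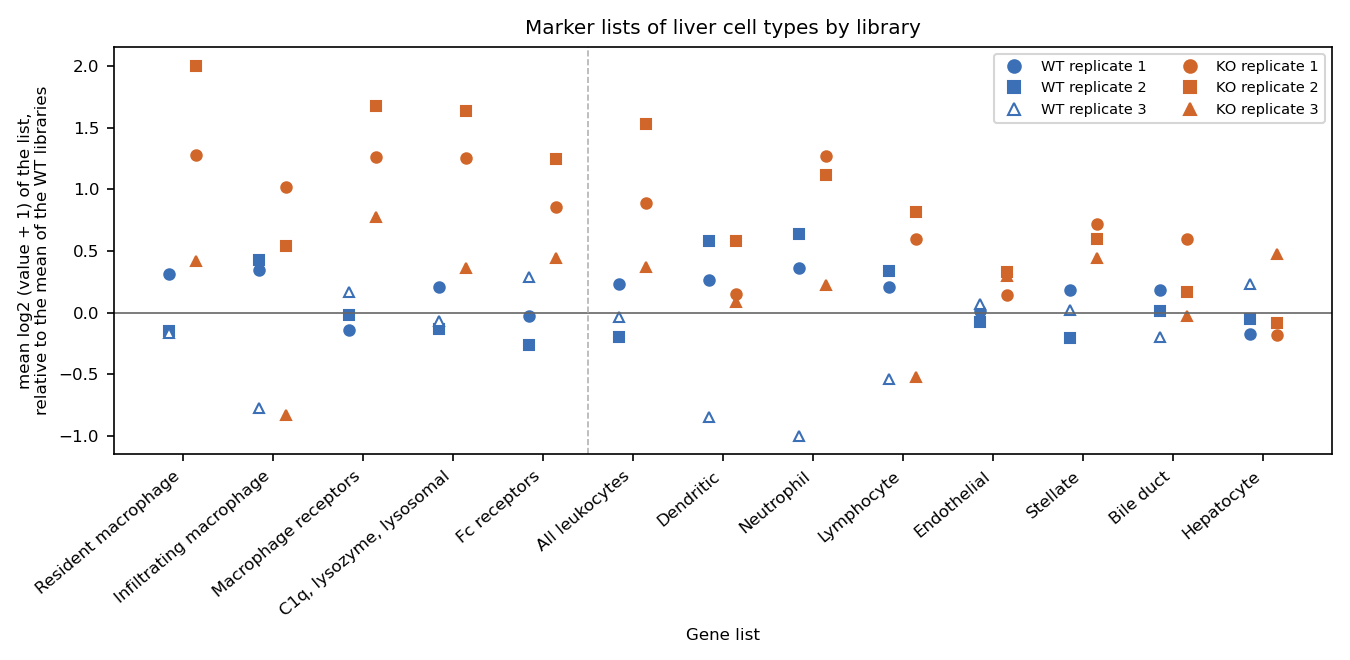
Mean log2 (scaled value plus 1) of each gene list in each library, relative to the mean of the 3 WT libraries (vertical axis), for the 5 groups of macrophage markers (left of the dashed line) and 8 lists of other cells (right); colours and shapes mark group and replicate as in the legend. KO points of the resident and C1q groups spread from KO replicate 3 near the WT points to KO replicate 2 at the top, and in the hepatocyte list KO replicate 3 is instead the highest point.

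Nascent RNA gave fewer reads for these genes and no replicates, so no test was made. The 33 markers summed to 1356 (WT) and 3786 (KO) EU reads, out of 10833287 and 5583983 reads in all, and to 1458 and 1530 Br reads, out of 3156055 and 2317840. Ratios are log2 of KO to WT reads, with 0.5 reads added and library totals divided out, centred on the median gene. Intervals are exact Clopper-Pearson at 95% and cover counting error only. Ratios are given for genes with at least 20 reads over both libraries, which 17 markers reached in EU and 22 in Br. Because the minimum is on the sum, a marker with reads in 1 library alone enters only as different, as Cd14 and C1qc did in EU.

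In EU, 10 of the 17 markers were at least 2-fold higher in KO, where 24.9% of all genes with this many reads were, and 3 were at least 2-fold lower, where 22.9% were. The median ratio of the 17 was 1.75. In Br, 3 of the 22 were at least 2-fold higher, where 7.34% of genes were, and 2 were at least 2-fold lower, where 6.77% were. The Br median was 0.34. Of 16 markers with enough reads in both, 11 had the same sign (9 higher and 2 lower) and 5 had opposite signs.

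The resident markers, higher in KO as mRNA, were not uniformly higher as nascent RNA. Their summed reads went from 187 to 76 in EU, a ratio of -0.33 (-0.73 to 0.064), and from 232 to 235 in Br, a ratio of 0.46 (0.20 to 0.73). Clec4f had 97 and 19 EU reads (ratio -1.35, -2.17 to -0.66) but 107 and 127 Br reads (0.69, 0.31 to 1.08). Its 2 nascent measures thus went in opposite directions. Vsig4 had 36 and 7 EU reads (-1.31, -2.80 to -0.20) and 28 and 9 Br reads (-1.14, -2.46 to -0.067), lower in both while its mRNA difference was positive. Timd4 had 23 and 10 EU reads and 20 and 10 Br reads, with ratios of -0.19 and -0.52 whose intervals included 0. Cd5l had 19 and 39 EU reads (1.99, 1.18 to 2.88) and 76 in each Br library (0.45, -0.032 to 0.92). Marco was under the minimum in both, with 12 and 1 EU reads and 1 and 13 Br reads.

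Infiltrating markers had almost no nascent reads: 29 and 23 in EU and 38 and 79 in Br over the 7 genes. The Br sum gave a ratio of 1.50 (0.93 to 2.10). Cx3cr1, lower in KO as mRNA, had 19 and 30 Br reads (1.09, 0.23 to 2.02). Its EU reads were 18 and 0, under the minimum of 20, with an upper interval limit of -1.17. Cx3cr1 was thus higher in KO in Br, while its few EU reads were all in WT, so the 2 nascent measures differed in direction. Itgax had 5 and 15 Br reads (1.94, 0.50 to 3.85).

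For the called Csf1r, and for Cd68, which was not called with all libraries, nascent RNA depended on the method. The called Cd14 had enough reads in EU alone. Csf1r had 50 and 85 EU reads (1.73, 1.22 to 2.27). Its Br reads were 186 and 99 (-0.46, -0.83 to -0.10). Cd14 had 0 and 38 EU reads, which is 24.8-fold higher with the 0 set to 3 reads (log2 4.63). Its lower interval limit was 4.27. Its Br reads were 7 and 11, under the minimum. Cd68 had 56 and 133 EU reads (2.21, 1.76 to 2.70) and 75 and 55 Br reads (0.0025, -0.53 to 0.52). All 3 were thus higher in EU, while in Br Csf1r was lower beyond its counting interval and Cd68 was within it.

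The C1q genes, which sit together on chromosome 4, gave unlike EU values. C1qb went from 59 EU reads to 2461 (6.34, 5.98 to 6.75), while C1qa had 1 and 2 reads and C1qc 22 and 0 (at least 3.74-fold lower). Their Br ratios lay closer together. C1qa had 36 and 46 Br reads (0.80, 0.14 to 1.47), C1qb 30 and 50 (1.17, 0.50 to 1.89) and C1qc 43 and 37 (0.23, -0.44 to 0.90). C1qb alone made up most of the EU reads of the markers in KO. The EU ratio of the summed markers was 2.45 with C1qb and 1.00 (0.89 to 1.11) without it, and the Br ratio was 0.52 and 0.50. C1qb was singled out after its value was seen.

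Among the rest, Lyz2 had 150 and 257 EU reads (1.75, 1.45 to 2.05) and 64 and 46 Br reads (-0.026, -0.61 to 0.54). Fcgr3 was higher in both, with 91 and 162 EU reads (1.80, 1.42 to 2.19) and 373 and 498 Br reads (0.86, 0.67 to 1.06). Fcgr2b had 101 and 30 EU reads (-0.76, -1.42 to -0.18) and 98 and 136 Br reads (0.92, 0.53 to 1.31), opposite in sign. The microglial and macrophage marker Aif1 had 21 and 3 Br reads (-2.17, -4.75 to -0.62) and 18 and 1 EU reads. The remaining markers at least 2-fold higher in EU were Adgre1, Ctss and Laptm5, with ratios of 3.06, 2.85 and 2.43, and none of the 3 was so in Br. Lists of other cells were summed the same way. Stellate markers had a ratio of 3.05 in EU and 0.89 in Br, bile duct markers 2.41 and 1.05, and genes of leukocytes in general 2.48 and 0.063. The macrophage markers had 2.45 and 0.52, or 1.00 and 0.50 without C1qb. Neutrophil markers had 0.83 and 0.47 and endothelial markers, Fcgr2b included, 0.33 and 0.00094. Dendritic markers had 0.031 and -0.083, lymphocyte markers -1.31 and 0.82, and hepatocyte markers -0.60 and -0.50. The lymphocyte sums rested on few reads, 34 and 7 in EU (-2.73 to -0.11) and 34 and 44 in Br (0.14 to 1.51). So did the neutrophil sums, with 52 and 47 in EU (0.22 to 1.42) and 73 and 74 in Br (-0.02 to 0.95). By the sums of these lists, a higher nascent ratio in KO was not particular to the macrophage markers. Whether single genes carried the sums of the other lists was not examined, and genes of leukocytes in general include those of macrophages.

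**Figure D4:**
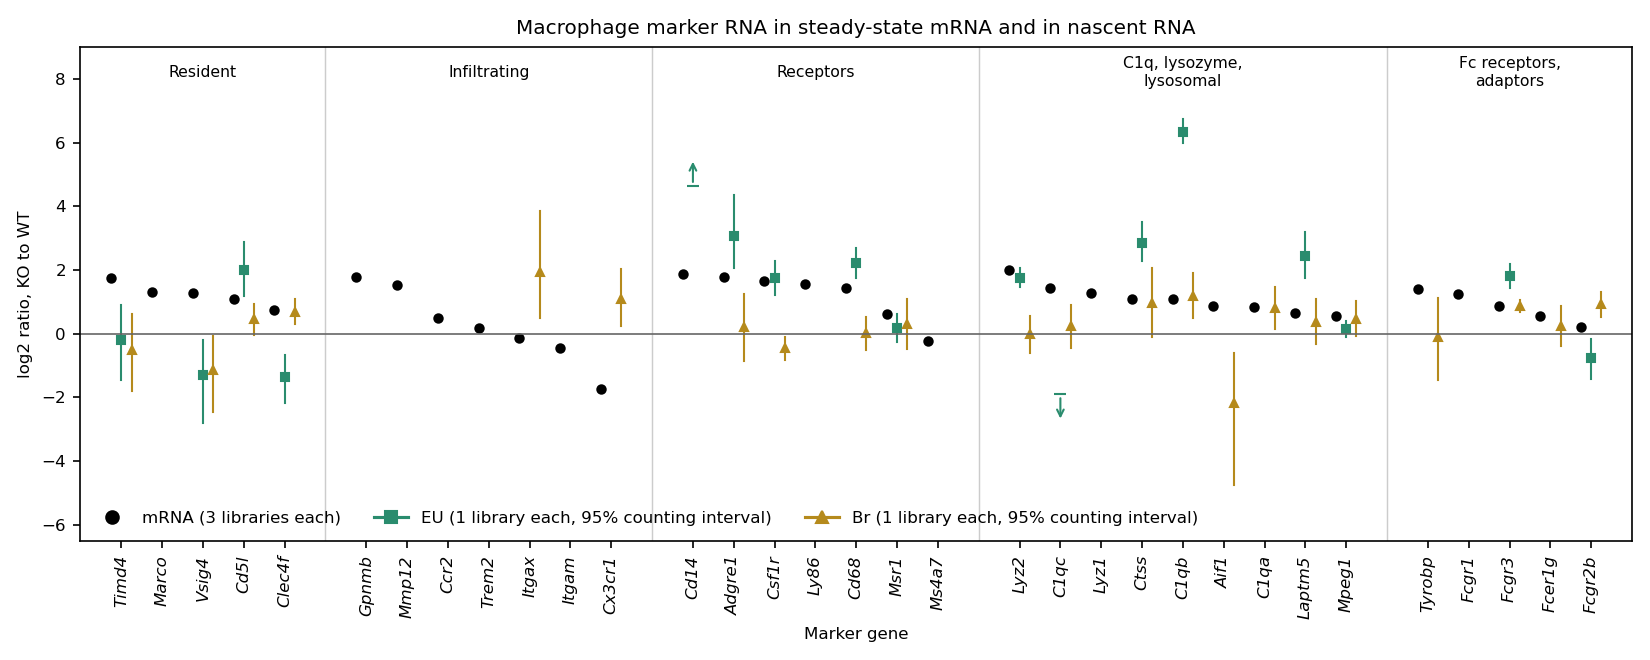
log2 ratio of KO to WT (vertical axis) for each marker by role (horizontal axis). Black circles are mRNA differences (3 libraries per group). Green squares are EU and ochre triangles Br (1 library per group each), with 95% counting intervals. For genes with 0 reads in 1 library, arrows start at the ratio with the 0 set to 3 reads. Markers under 20 reads have no nascent point. C1qb stands at 6.34 in EU, Vsig4 is below 0 in both nascent measures and above 0 in mRNA, and most Br points lie between -1 and 1.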

How the data were processed

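Only the 10 RNA samples were analysed, and the 24 chromatin and input samples were not used here. The mRNA values are a score: counts that the authors scaled with DESeq and rounded to whole numbers, per the labels and the submitters' processing notes, which also name TopHat2, Bowtie2, Cufflinks and mm9. The nascent counts are as the authors deposited them. Every Br value was even and was divided by 2. RPKM deposited by the authors served as an alternative. The counter and annotation are not given in the sources used here. Because scaled values were deposited, limma 3.58.1 (R 4.3.3, eBayes with trend and robust) was the main test, on log2(value + 1) over 16813 genes with at least 10 in 3 libraries, two-sided, with Benjamini-Hochberg adjustment over all genes and calls under 0.05. Differences are on the log2(value + 1) scale, which understates changes of low genes. Reads re-estimated from rounding steps (15620486 to 27096574 per library) served edgeR 4.0.16 and DESeq2 1.42.0. Other alternatives were pseudocounts, filters, TMM, a replicate block, array weights and leaving out each library. Levels per kb used GENCODE exon lengths. Genes given in full were the called, resident, infiltrating, lysozyme, C1q, Fcgr2b and Fcgr3 markers, called genes of the other lists and at most 4 more per list. Markers and lists were chosen with earlier results of these data known.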

Additional observations from a re-analysis of the deposited data

How the results depend on the processing

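Of 24 macrophage markers followed through every mRNA alternative, 21 kept their direction in all of them. Itgax turned from -0.13 to 0.024 with a pseudocount of 10, 0.34 with edgeR, 0.29 with DESeq2 and 0.55 with array weights. Leaving out 1 library at a time moved Itgax from -0.76 to 0.81, Trem2 from -0.42 to 0.63 and Fcgr2b from -0.008 to 0.53. Markers called higher, 2 with limma on all libraries, numbered 6 with no filter, 4 with edgeR, 14 with DESeq2 and 26 with array weights, and markers called lower 1 with DESeq2 (Cx3cr1) and 2 with array weights (Cx3cr1 and Itgam). Genes called higher and lower over the whole table numbered 306 and 315 with no filter, which tested more genes, and 274 and 227 with edgeR. They numbered 878 and 913 with DESeq2 and 4250 and 4160 with array weights. The array weights were 5.04 for WT replicate 2, 5.26 for KO replicate 2 and 0.157 for WT replicate 3. The cause of these shifts was not tested. Same-numbered WT and KO libraries had correlations of deviations of 0.409, -0.242 and 0.198, so the replicate numbers were not taken as pairs. With the replicate block, 8 markers were called higher, 1 lower, and 500 and 514 genes over the table. Leaving out 1 library gave 0 to 10 markers called higher, 13 to 797 genes higher and 15 to 869 lower over the table, and a marker median of 0.76 to 1.43. In nascent RNA, EU markers at least 2-fold lower numbered 6 from 10 reads, 1 from 50 reads and 1 by RPKM. Br markers at least 2-fold higher numbered 7, 1 and 1 in the same order, and Br markers at least 2-fold lower 0 from 50 reads and 1 by RPKM. Shares of all genes were found only for the minimum of 20 reads. These counts therefore have no background beside them and say nothing on the markers against other genes. Fewer markers reach a higher minimum, and most infiltrating markers had too few nascent reads for a ratio.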
